A study of Mus musculus with 3 samples.

Results

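The Notch receptors, ligands and nuclear factors described here are the 10 genes Notch1, Notch2, Notch3, Jag1, Jag2, Dll1, Hes1, Hey1, Heyl and Hes6, taken by symbol from count files that list 23238 gene symbols. All 10 were found in each library on 1 line each, and all 10 passed the filter on low values that 13169 genes passed. The cells were c2c12, an immortal mouse myoblast line whose cells form myotubes by fusion when serum is reduced. They were seeded on 1 of 3 substrates in serum-rich medium and, once nearly confluent, kept there for 2 days in myogenic induction medium (low horse serum). TCP was bare tissue culture plastic. GelMA was a hydrogel of 15% methacrylated gelatin, and GelMA-PSS was the same 15% gel copolymerized with 1% poly(sodium 4-styrenesulfonate), a sulfonated polymer used to mimic heparin. All 3 groups shared the cell line, the medium and the day, and none was left in growth medium. There is 1 library per substrate, so that no difference below could be set against the spread between replicates and no p-values are given.

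Notch receptors are single-pass membrane proteins that are activated by Delta-like and Jagged ligands on a neighbouring cell. Ligand binding lets ADAM proteases and then γ-secretase release the intracellular domain, which joins the DNA-binding protein Rbpj and Mastermind-like coactivators to turn on target genes, classically repressors of the Hes and Hey families. In skeletal muscle, Notch signalling is known for keeping satellite cells and myoblasts undifferentiated, and Hes6 is the unusual member of the family because it antagonizes Hes1 and favours muscle differentiation.

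Values are CPM, that is counts scaled to a common library total, with TMM factors that correct each total for the library's composition. Ratios between libraries are log2 ratios of (CPM + 1), and a gene was called when it passed 2-fold. The TCP library held 119799095 counts, that of GelMA 87071144 and that of GelMA-PSS 192171443, and the 10 genes took 0.0825%, 0.103% and 0.0667% of them. Intervals are at 95% and cover counting error only. The comparisons of GelMA-PSS with GelMA and with TCP share the GelMA-PSS library, so that their values stand side by side and do not support each other. As these are bulk libraries, fewer cells of a type and less RNA per cell cannot be told apart.

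The labelled cell type was checked against its markers. All 5 myoblast markers and all 5 markers of differentiated muscle were above a CPM of 1 in every library, with Myod1 at 94.3 on TCP, 105 on GelMA and 119 on GelMA-PSS. Myog, a regulator of differentiation, was at 1100, 895 and 1037 CPM in the same order. Endothelial cells and smooth muscle also use Notch, so their markers were read too. The 4 endothelial markers were all below a CPM of 1 and summed to between 0.682 and 0.905 CPM. Of the smooth muscle markers, Myh11, the myosin that defines these cells, stayed between 0.0938 and 0.319 CPM, and Cnn1 had 1.00, 0.429 and 1.32, whereas Acta2 and Smtn were abundant in every library. Of the 3 macrophage markers, Ptprc had 0, 0 and 4 counts and Adgre1 0, 1 and 0, whereas Cd68, which is not restricted to these cells, was at 1.53, 1.71 and 1.37 CPM, and the adipocyte markers summed to no more than 0.0985 CPM.

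As measured, all 3 receptors were most abundant in the GelMA library and least abundant in the GelMA-PSS library, an order that held for Notch1 but not for Notch2 and Notch3 once transcript length was corrected for. Notch3, on chr17:32120820-32166852 of GRCm38 (minus strand), had the highest CPM of the 3, with 209 on TCP, 322 on GelMA and 191 on GelMA-PSS. Notch2, on chr3:98013527-98150361 (plus strand), had 140, 224 and 111 CPM. Notch1, on chr2:26457903-26516663 (minus strand), had 72.5, 87.9 and 45.7 CPM. The order GelMA, TCP, GelMA-PSS was therefore the same for each receptor, and within each gene no counting interval of one library touched that of another. Per kilobase of transcript, the scale on which genes can be compared with each other, the receptors summed to 47.0 CPM per kb on TCP, 70.8 on GelMA and 39.1 on GelMA-PSS.

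Between GelMA and TCP, Notch2 differed by a log2 ratio of 0.67 and Notch3 by 0.62. In CPM this is 1.60-fold for Notch2 (1.57 to 1.63) and 1.54-fold for Notch3 (1.52 to 1.57), and for Notch1 it is 1.21-fold (1.18 to 1.25). Of the 10 genes 7 were higher on GelMA, beside 48.3% of all tested genes. In this comparison 0 of the 10 passed 2-fold, beside 1.00% of tested genes. Past 1.5-fold there were 2, Notch2 and Notch3, where 5.62% of tested genes passed in either direction. Of genes whose transcripts lie within 1.2-fold of the length of each, 91.8% had a lower ratio than Notch2 and 95.3% a lower ratio than Notch3.

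Against GelMA, the GelMA-PSS library held 2.03-fold less Notch2 (1.99 to 2.07), 1.92-fold less Notch1 (1.87 to 1.98) and 1.69-fold less Notch3 (1.66 to 1.72). The log2 ratios were -1.01, -0.93 and -0.75. Notch2 was the only one of the 10 genes that passed 2-fold here, and its margin was narrow. In the background, 4.10% of tested genes passed 2-fold in either direction and 2.33% were lower. Against TCP the receptors' ratios were smaller, at -0.34 for Notch2, -0.65 for Notch1 and -0.13 for Notch3, and none passed.

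**Figure D1:**
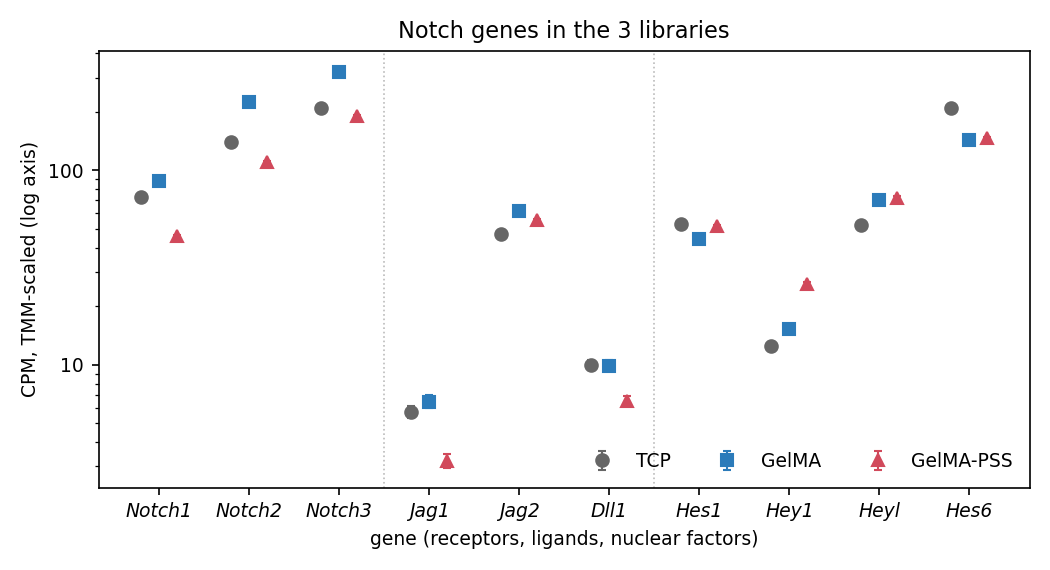
TMM-scaled CPM of each of the 10 genes in the TCP, GelMA and GelMA-PSS libraries, on a log axis, with 95% counting intervals that are mostly smaller than the symbols. The receptors peak on GelMA and are lowest on GelMA-PSS (after the length correction, Notch2 and Notch3 are lowest on TCP), Hey1 is highest on GelMA-PSS at 26.0 CPM, and Hes6 is highest on TCP at 210 CPM.

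The receptors are also the longest transcripts of the group, and the GelMA-PSS ratios followed transcript length over the whole table. Notch2 has a transcript of 10500 bases, Notch1 of 9488 and Notch3 of 8016 in the GENCODE annotation. Spearman's rho of the ratio with length, over the 13059 genes that have one, was -0.66 when GelMA-PSS was set against GelMA and -0.50 when it was set against TCP. Between the controls, GelMA over TCP, it was 0.21. This is a correlation across genes of the same pair of libraries, which are not independent replicates. Genes within 1.2-fold of the length of Notch2 had a median log2 ratio of -0.79 in GelMA-PSS against GelMA, genes as long as Notch1 -0.72 and genes as long as Notch3 -0.59. Of these genes of like length, 24.9%, 26.6% and 30.4% lay below the receptor itself.

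When the trend with length and GC content was subtracted, the receptors came to -0.12 for Notch2, -0.08 for Notch1 and -0.01 for Notch3 against GelMA. Against TCP, the corrected ratio was 0.29 for Notch2 and 0.42 for Notch3, which turns the direction of both, and -0.04 for Notch1. Between GelMA and TCP the corrected ratios remained positive, at 0.49 for Notch2, 0.48 for Notch3 and 0.11 for Notch1. The part of transcript length in the receptor ratios was not tested beyond this correction. Exons of Notch1, Notch2 and Notch3 overlap those of unnamed gene models, on the opposite strand for Notch1 and Notch3 and on the same strand for Notch2. None of those models has a line in the files. The methods describe the reads as strand-specific, but whether strand was used in counting is not given in the sources used here.

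**Figure D2:**
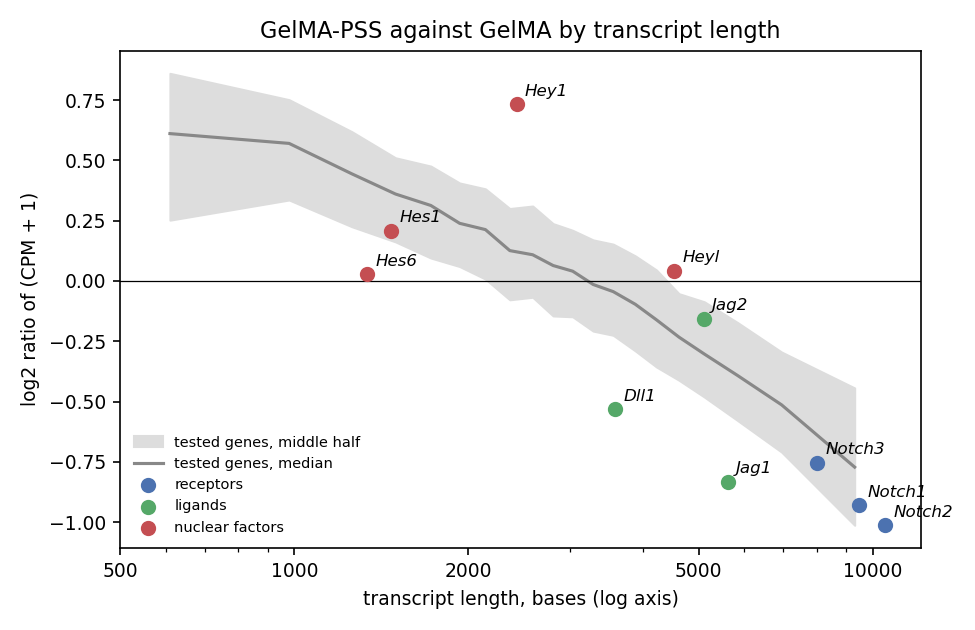
Log2 ratio of GelMA-PSS against GelMA plotted against transcript length in bases on a log axis, with the median (line) and the middle 50% (band) of tested genes in bins of length and the 10 genes as coloured points. Notch1, Notch2 and Notch3, at -0.93, -1.01 and -0.75, lie below the medians of genes of like length, -0.72, -0.79 and -0.59. The line ends at 9312 bases, short of Notch1 and Notch2. Hey1 at 0.73 lies far above the line, and Jag1 at -0.83 and Dll1 at -0.53 lie below it.

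Among the ligands, Jag2 made up most of the transcripts and Jag1 and Dll1 were scarce. Jag2, a Jagged-type ligand on chr12:112907819-112929776 (minus strand), had 47.2 CPM on TCP, 61.7 on GelMA and 55.3 on GelMA-PSS. Dll1, the Delta-like ligand best known from myogenic progenitors, on chr17:15367354-15376872 (minus strand), had 9.96, 9.86 and 6.51 CPM. Jag1, on chr2:137081456-137116644 (minus strand), had 5.72, 6.47 and 3.20 CPM. Both of the scarce ligands were lowest in the GelMA-PSS library, and Jag2 was lowest on TCP, though not as TPM.

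Jag1 and Jag2 have transcripts of similar length, 5612 and 5106 bases, yet differed in how GelMA-PSS stood to GelMA. Jag1 was 2.02-fold lower (1.80 to 2.27), with a log2 ratio of -0.83 that did not pass 2-fold on the (CPM + 1) scale, which shrinks the ratios of low genes. Jag2 had a log2 ratio of -0.16 in the same comparison. Of genes of like length, 5.44% lay below Jag1, whereas 66.4% lay below Jag2. With the trend subtracted, Jag1 stood at -0.50 and Jag2 at 0.29, so that the direction of Jag2 turned. Against TCP, Jag1 had a log2 ratio of -0.68 and Jag2 of 0.22, the latter -0.18 when values were taken as TPM.

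Dll1 was 1.51-fold lower on GelMA-PSS than on GelMA (1.39 to 1.65) and 1.53-fold lower than on TCP (1.41 to 1.66). Its transcript, of 3581 bases, lies where the trend with length is close to 0, and the corrected ratios were -0.42 and -0.45. Among genes of like length, 7.27% lay below Dll1 against GelMA and 10.7% against TCP. GelMA and TCP had nearly the same level, with a ratio of -0.01 whose sign turned with plain CPM and with TPM, and the counting interval of the fold, 0.907 to 1.08, contains 1. An exon of Dll1 overlaps a gene model on the opposite strand that has no line in the files.

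Within the ligands, the shares of summed CPM per kb differed between libraries. Jag2 took 70.8% on TCP, 75.6% on GelMA and 81.9% on GelMA-PSS. Jag1 took 7.81%, 7.21% and 4.31%. Dll1 took 21.3%, 17.2% and 13.8%. The ligands summed to 13.0, 16.0 and 13.2 CPM per kb. Within the receptors, Notch3 took the largest share in each library, from 55.4% on TCP to 60.8% on GelMA-PSS, and Notch1 the smallest, from 16.2% to 12.3%. The shares are not corrected for the trend of the GelMA-PSS ratios with length, and Notch3 has the shortest transcript of the receptors.

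**Figure D3:**
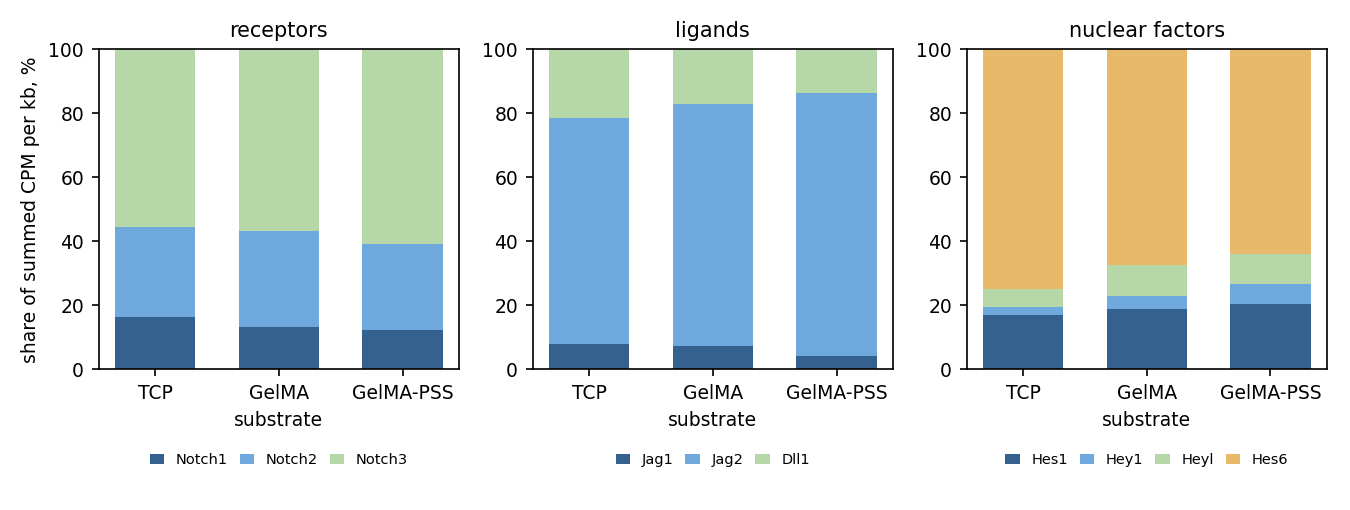
Share of the summed CPM per kb that each gene takes within the receptors, the ligands and the nuclear factors, in percent, for the TCP, GelMA and GelMA-PSS libraries. Notch3, Jag2 and Hes6 take the largest share of their class in every library, Hes6 from 74.9% on TCP to 63.9% on GelMA-PSS. The shares are not corrected for the trend of the ratios with length.

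The nuclear factors differed from each other in how they stood on the 3 substrates. Hes1, Hey1 and Heyl are basic helix-loop-helix repressors that Notch can induce, and Hes6 is their relative that acts against Hes1. Hes-family repressors recruit Groucho/TLE corepressors through a short peptide of tryptophan, arginine, proline and tryptophan at or near the end of the protein. Hey1 has tyrosine in the first place of this peptide, a form not known to recruit them in the same way. The end of each coding sequence is shown because the 4 factors differ there. Each line gives the 45 coding bases before the stop codon and the stop codon itself, 5′ to 3′ from GENCODE on GRCm38, with the 4 codons of that peptide, in either form, in capitals.
Hes1: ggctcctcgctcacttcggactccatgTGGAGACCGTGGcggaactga
Hes6: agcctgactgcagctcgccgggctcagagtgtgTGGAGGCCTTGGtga
Hey1: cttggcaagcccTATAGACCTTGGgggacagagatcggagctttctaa
Heyl: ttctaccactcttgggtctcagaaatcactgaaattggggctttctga
The 4 codons stand directly before the stop in Hes6, with 2 codons between in Hes1 and 7 in Hey1, and no match was found in these bases of Heyl.

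Hey1 was the nuclear factor with the widest range over the libraries, and its highest value was on GelMA-PSS. The gene, on chr3:8663359-8667256 (minus strand), had 12.5 CPM on TCP, 15.2 on GelMA and 26.0 on GelMA-PSS. The GelMA-PSS level was 2.08-fold that on TCP (1.96 to 2.20) and 1.71-fold that on GelMA (1.61 to 1.81). On the log2 scale of (CPM + 1) the ratio against TCP was 0.997, just short of the 2-fold limit that 3.72% of tested genes passed upward, and that against GelMA was 0.73. With a transcript of 2423 bases, Hey1 stood above 97.1% of genes of like length against GelMA and above 97.0% against TCP. The corrected ratios were 0.63 and 0.91, and Hey1 was higher on GelMA-PSS than on both other substrates under each of the 7 alternatives to the processing. Of these, the filter on low values cannot change a gene's ratio, and leaving out repeated symbols changes only the library totals for Hey1.

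Heyl, on chr4:123233556-123249875 (plus strand), had 52.4 CPM on TCP, 70.1 on GelMA and 72.2 on GelMA-PSS. It was 1.34-fold higher on GelMA (1.29 to 1.39) and 1.38-fold higher on GelMA-PSS (1.34 to 1.42) than on TCP. Both gels thus stood above the plastic, while the gels did not differ from each other beyond counting error as measured, with a fold of 1.03 (1.00 to 1.06). Their log2 ratio of 0.04 became -0.10 under plain CPM, -0.41 as TPM and 0.32 after correction. The ratio of GelMA-PSS against TCP was 0.46, above 92.9% of genes of like length, and 0.67 after correction.

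Hes1, on chr16:30064384-30067796 (plus strand), had the narrowest range of the 10 genes as measured, though not after the correction. It had 52.7 CPM on TCP, 44.5 on GelMA and 51.5 on GelMA-PSS, a range of 0.24 on the log2 scale. TCP and GelMA-PSS did not differ beyond counting error as measured (fold 0.978, 0.948 to 1.01), but the log2 ratio of -0.03 became -0.32 after correction and -0.44 as TPM. The log2 ratio of GelMA-PSS against GelMA was 0.21 as measured, but -0.16 after correction and -0.25 as TPM.

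Hes6, on chr1:91411483-91414038 (minus strand), was the gene with the highest level per length in each library, at 157 CPM per kb on TCP, 107 on GelMA and 109 on GelMA-PSS. In CPM it had 210, 143 and 146. TCP thus stood above both gels, and the gels did not differ beyond counting error as measured, with a fold of 1.02 (0.999 to 1.04). Their log2 ratio of 0.03 became -0.12 under plain CPM, -0.44 as TPM and -0.25 after correction. The log2 ratio was -0.55 for GelMA and -0.52 for GelMA-PSS against TCP, and the corrected ratios were -0.48 and -0.73. Of genes of like length, 3.17% and 4.60% lay lower in these comparisons.

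Markers of differentiated muscle were also highest on TCP, as measured values that stand beside Hes6. Tnnt3, a fast troponin T, had 4153 CPM on TCP, 2857 on GelMA and 3117 on GelMA-PSS, and Acta1, the skeletal α-actin, had 6192, 5379 and 5060. Myh3, the embryonic myosin heavy chain, had 10182, 6355 and 3037 CPM, and Ckm, the muscle creatine kinase, had 542, 430 and 380. All 5 markers were above a CPM of 1, and their sum was 22168, 15916 and 12630 CPM. Between the gels the sum followed Myh3, whose log2 ratio of GelMA-PSS against GelMA was -1.07, or -0.61 corrected. Ckm and Acta1 had ratios of -0.18 and -0.09, whereas Myog and Tnnt3 were higher on GelMA-PSS, at 0.21 and 0.13. Corrected, these were -0.21, -0.38, -0.09 and -0.34 in the same order. Of the myoblast markers, Myf5 had 13.9, 19.5 and 36.5 CPM and Pax7 had 11.2, 10.5 and 6.01, while Des had 3299, 2863 and 3154 and Cdh15 had 669, 610 and 672. Their part in the values of Hes6 and the other Notch genes was not tested.

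RefSeq promoters on GRCm38.p6 were at hand for 7 of the 10 genes, with 9 start sites in all. Hes1, Hey1 and Heyl are not among the 7, so that the counts below cover the receptors, the ligands and Hes6. The 250 bases before each start were searched on both strands for TGGGAA, the core that Rbpj binds, and for CAGCTG, a palindromic E-box of the kind myogenic factors bind. TGGGAA was found in 0 of the 9, against 21.6% of 32851 promoters of the same length. CAGCTG was found in 4 of the 9, against 13.0% of all promoters, namely in both promoters of Hes6, in the promoter of Jag1 and in 1 of the promoters of Dll1. The promoter at the outer start of Hes6, at chr1:91414039-91414288 (minus strand), is shown with CAGCTG in capitals, 171 bases before the start, because Hes6 is the most abundant of the genes per length.
Hes6: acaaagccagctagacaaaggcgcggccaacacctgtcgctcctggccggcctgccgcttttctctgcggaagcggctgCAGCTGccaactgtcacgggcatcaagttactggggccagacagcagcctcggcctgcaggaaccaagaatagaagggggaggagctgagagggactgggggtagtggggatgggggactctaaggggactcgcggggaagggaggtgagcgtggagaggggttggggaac
A match is a description of the letters, and no binding was measured.

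**Figure D4:**
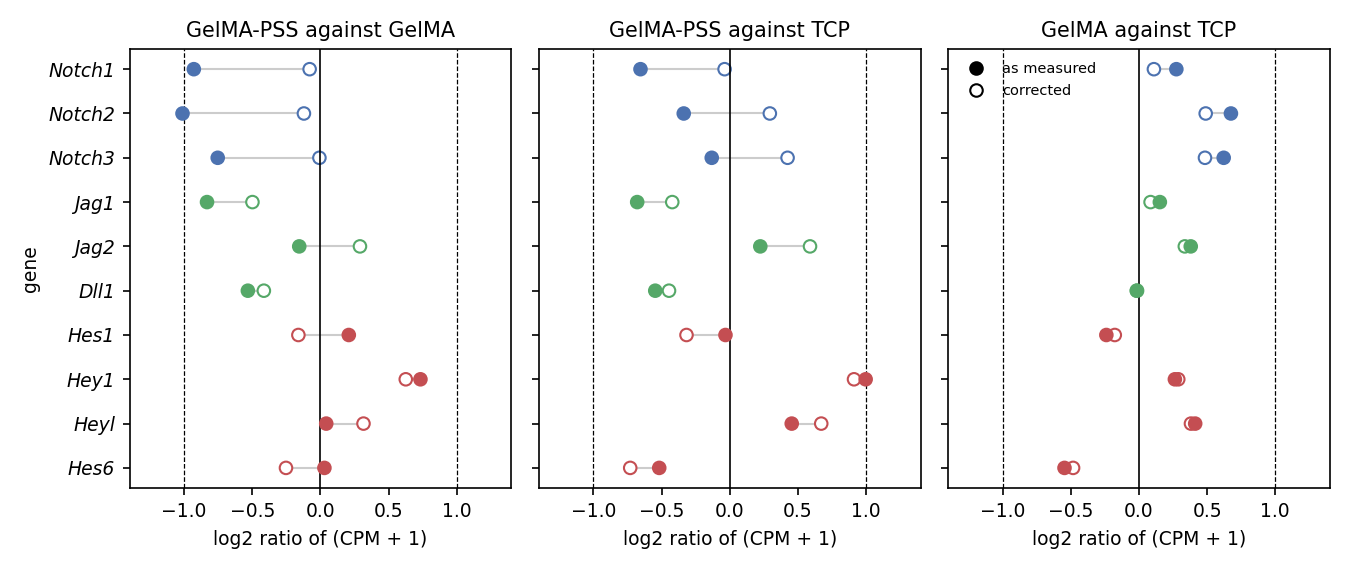
Log2 ratios of (CPM + 1) of the 10 genes in the 3 comparisons, as measured (filled) and after subtraction of the trend with length and GC content (open), with receptors in blue, ligands in green and nuclear factors in red and dashed lines at 2-fold. Corrected, the receptors lie near 0 or above it in the GelMA-PSS comparisons and Hey1 lies at 0.63 and 0.91. In GelMA against TCP each gene keeps its side of 0. There the correction moves Notch1 from 0.27 to 0.11, Notch2 from 0.67 to 0.49 and Notch3 from 0.62 to 0.48.

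Over all 10 genes, the median log2 ratio was -0.34 between GelMA-PSS and GelMA, -0.23 between GelMA-PSS and TCP and 0.27 between GelMA and TCP, beside 0.03, 0.04 and -0.01 for all tested genes. On GelMA-PSS 6 of the 10 were lower than on GelMA, beside 46.9% of tested genes, and 7 of the 10 lower than on TCP, beside 47.2%. The corrected medians of the 10 were -0.10, 0.13 and 0.20. Past 1.5-fold, 5 of the 10 differed between GelMA-PSS and GelMA, where 21.8% of tested genes did, and 3 between GelMA-PSS and TCP, where 24.7% did. The 5 include Notch1, Notch2 and Notch3, and genes of like length to these had median log2 ratios of -0.72, -0.79 and -0.59 against GelMA. In the comparison with TCP, 0 passed 2-fold beside 6.85% of tested genes.

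GelMA-PSS was lower than both other substrates for 5 genes, Notch1, Notch2, Notch3, Jag1 and Dll1, beside 39.3% of tested genes. It was higher than both for 2, beside 45.3% of tested genes. These were Hey1 and Heyl, the latter not under plain CPM and TPM. For Jag2, Hes1 and Hes6 it lay between them. After the correction 5 genes were again lower than both, but these were Notch1, Jag1, Dll1, Hes1 and Hes6, and 3 were higher, Jag2, Hey1 and Heyl. No share over all tested genes was taken for the corrected values, so that these counts are a description only. Notch1, Jag1 and Dll1 on the low side and Hey1 on the high side had the same place with and without the correction, under plain CPM and as TPM, although the corrected ratios of Notch1 were no more than -0.08 and -0.04.

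Ordered per kilobase, Hes6 came first in each library and Dll1 and Jag1 came last. Hes1 and Notch3 followed Hes6, with 35.9 and 26.1 CPM per kb on TCP and 35.1 and 23.8 on GelMA-PSS, and in the reverse order on GelMA with 30.3 and 40.2. Notch2 came next on TCP and GelMA, at 13.3 and 21.4 CPM per kb. In GelMA-PSS, Jag2 at 10.8, Hey1 at 10.7 and Notch2 at 10.5 had overlapping counting intervals, and all other neighbours in the 3 orders were apart. Hey1 stood at 5.16 on TCP and 6.28 on GelMA, below Notch1 there and above it on GelMA-PSS. Jag1 had between 0.570 and 1.15 CPM per kb. These values are not corrected for the trend of the GelMA-PSS ratios with length.

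Notch2 had the widest range of the 10 on the log2 scale as measured, at 1.01, with Hey1 close behind at 0.997. Hey1 had the wider range with a pseudocount of 0.25 or after the correction. The profile of Notch2 was set beside all other tested genes by the distance of centred log2(CPM + 1) values over the 3 libraries. The nearest were Egfr, a growth factor receptor, at a distance of 0.01, and Ltbp2 and Phip, each at 0.04. Egfr had 18.7 CPM on TCP, 30.2 on GelMA and 14.6 on GelMA-PSS, and its transcript of 10208 bases is about as long as that of Notch2. Within a distance of 0.1 there were 20 genes. With 3 points, 1 per library, a near profile is a description only.

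Of the 66 other Notch pathway genes listed, 51 passed the filter. The other receptors and ligands, Notch4, Dll3, Dll4, Dlk1, Dlk2 and Dner, were all below a CPM of 1, with Dlk2 the highest at 0.953 CPM on TCP. The other Hes and Hey factors were below it too, and Hes5, a classical Notch target in neural cells, had 0 counts in all 3 libraries, which allows up to 0.0246, 0.0330 and 0.0166 CPM. Hes7 reached 0.232 CPM on GelMA-PSS. Nrarp, a target that feeds back on Notch, had 0.944, 0.616 and 0.690 CPM.

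Of the 51, 5 were lower past 2-fold in GelMA-PSS than in GelMA and 0 higher, beside 2.33% lower of all tested genes, and 6 were lower and 0 higher than in TCP, beside 3.13% lower. Between GelMA and TCP 0 passed. The median log2 ratio of the 51 was -0.15, -0.22 and 0.02, and 0.00, -0.06 and -0.01 after correction. After correction 0 passed against GelMA, beside 87 higher and 157 lower of 13059 genes. Against TCP 1 passed after correction, Tle4, beside 264 higher and 314 lower.

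The genes that passed stood in 4 of the lists, ligand ubiquitination, receptor turnover, the Rbpj activator complex and the corepressors. Mib1, the ubiquitin ligase that prepares ligands for endocytosis, had 50.8 CPM on TCP, 65.1 on GelMA and 28.2 on GelMA-PSS, a ratio of -1.18 against GelMA and -0.46 corrected. Crebbp and Ep300, the acetyltransferases of the activator complex, had ratios of -1.55 and -1.12 against GelMA, which became -0.67 and -0.35. Spen, a corepressor that acts with Rbpj, had 68.3, 76.4 and 25.8 CPM and a ratio of -1.53 against GelMA, -0.46 corrected. These 4 transcripts are between 9566 and 12299 bases long, as long as the longer Notch receptors or longer.

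Against TCP, Spen and Crebbp passed again, at -1.37 and -1.24. Fbxw7, the ligase that marks the Notch intracellular domain for decay, had 49.1, 35.8 and 22.6 CPM and a ratio of -1.09 against TCP, -0.97 corrected. Maml2, a Mastermind-like coactivator, had 6.96, 6.05 and 2.65 CPM and a ratio of -1.13, -0.82 corrected. Tle4, a Groucho-type corepressor, had 6.52, 3.66 and 1.81 CPM and a ratio of -1.42, -1.28 corrected, so that it was also lower on GelMA than on TCP, by -0.69.

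**Figure D5:**
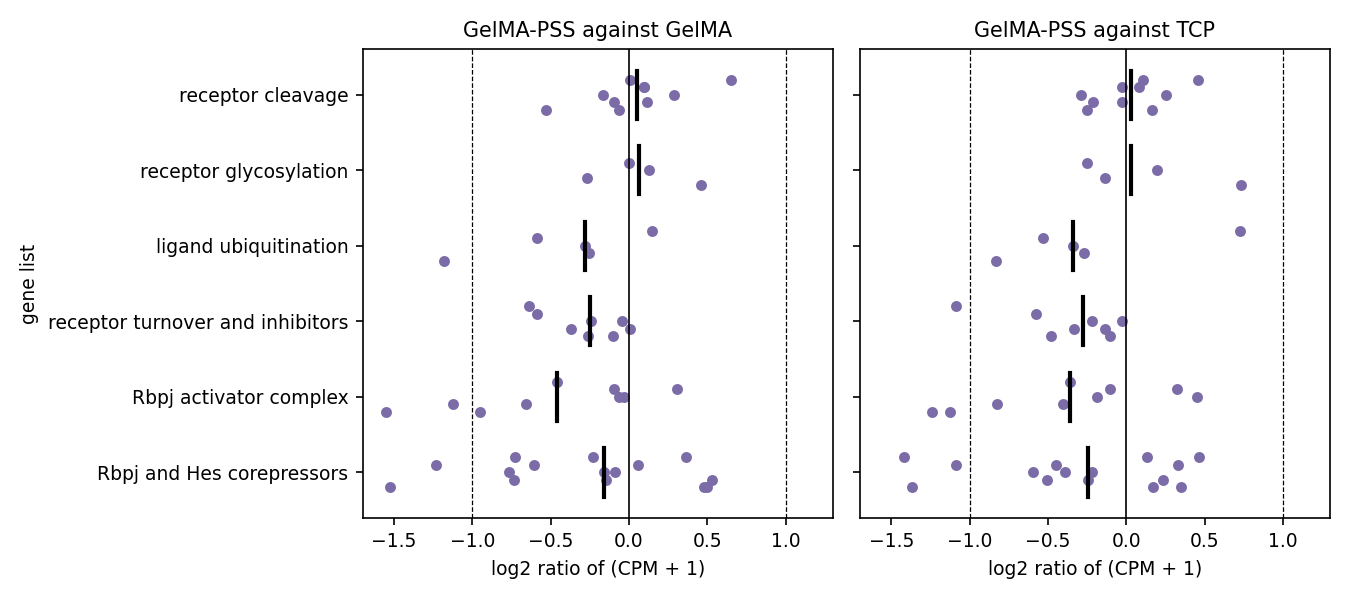
Log2 ratios of (CPM + 1) of the 51 tested other Notch pathway genes by list, for GelMA-PSS against GelMA and against TCP, with a point per gene, a bar at each list's median and dashed lines at 2-fold. The points past the lower line lie in ligand ubiquitination, receptor turnover, the Rbpj activator complex and the corepressors, and no point lies past the upper line.

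By list, the median ratio between GelMA-PSS and GelMA was 0.05 for the 10 genes of receptor cleavage and 0.06 for the 4 tested genes of receptor glycosylation. It was -0.28 for the 5 ligand ubiquitination genes, -0.25 for 8 genes of receptor turnover, -0.46 for the 9 genes of the Rbpj activator complex and -0.16 for the 15 corepressors. Corrected, the 6 medians ran from -0.09 to 0.05. Psenen, a γ-secretase subunit with a transcript of 708 bases, had 37.3, 32.6 and 51.6 CPM and a ratio of 0.65 against GelMA, 0.07 corrected, whereas Furin, the protease that first cuts the receptor, had 115, 140 and 96.7 CPM.

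Lfng, the Fringe glycosyltransferase that tunes which ligands a Notch receptor answers to, had 11.8 CPM on TCP, 14.5 on GelMA and 20.3 on GelMA-PSS. Its order over the libraries was that of Hey1, but Heyl, Poglut1 and Snw1 had this order too. Of all tested genes, 45.3% were higher on GelMA-PSS than on both other substrates, so that the shared order is a description only. The log2 ratio of Lfng was 0.46 from GelMA to GelMA-PSS and 0.74 from TCP to GelMA-PSS, 0.41 and 0.71 corrected. Rbpj, the DNA-binding partner of the Notch intracellular domain, had 67.3, 94.5 and 92.4 CPM, higher on both gels than on TCP. Rbpj was named after its values were seen.

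The most abundant genes of the tested lists did not pass 1.5-fold. Poglut1, which adds O-linked glucose to the receptor, had 39.0, 41.0 and 44.9 CPM, and Snw1, a cofactor of the activator complex, had 109, 110 and 137. Neurl1a, a ligase for Notch ligands, had 206, 199 and 163 CPM, and Dtx3, of the Deltex family, had 78.1, 70.8 and 71.2. Aes, a short relative of the Groucho corepressors, was the most abundant of them in CPM with 810, 732 and 1032, and had a ratio of 0.50 against GelMA, 0.23 corrected.

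Scaling bears on these directions. Among all tested genes called past 2-fold between GelMA-PSS and GelMA, 43.1% were higher, against 19.2% with plain CPM and 3.64% as TPM. Against TCP the share was 54.3% in CPM with TMM factors and 37.0% with plain CPM, and as TPM 143 of the called genes were higher and 1047 lower. The median of all tested genes was -0.36 and -0.31 as TPM in these comparisons, so that a receptor ratio as TPM, such as -1.43 for Notch2 against GelMA, is read against that shift.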

How the data were processed

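RNA from c2c12 cells on TCP, GelMA and GelMA-PSS was sequenced, 1 library each. What the authors deposited are whole-number counts for each gene symbol, not normalized. Their submitters' processing notes name TopHat, edgeR and the builds mm10 and hg19, with no versions or roles, and the counting tool and annotation are not given in the sources used here. The methods name a TruSeq kit and the labels a SMARTER kit, and the methods' FPKM values were not used here. Groups came from the labels.

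Lines sharing 1 of 35 symbols were summed. Counts were scaled with TMM factors (1.02, 1.04 and 0.943 for TCP, GelMA and GelMA-PSS) from edgeR 4.0.16 in R 4.3.3, and genes that reached a CPM of 1 in any library were kept. Ratios used log2(CPM + 1), which understates changes of low genes. CPM intervals are Wilson and fold intervals Clopper-Pearson intervals at 95% (scipy 1.17.1). If each read of a pair was counted, which is not known, the intervals are too narrow. The floor is 3 counts per library. Lengths, 1 transcript per gene, came from GENCODE vM21 (GRCm38, the same build as mm10), matched for 22197 symbols directly and 668 through older symbols. Coordinates are that annotation's. The correction subtracted 2 loess fits (span 0.3, statsmodels 0.14.6), for length and then GC content. The scripts were tested on simulated counts.

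The genes and lists were chosen with earlier results of these data known. Of the other pathway genes, the text names those past 2-fold in any comparison and, per list, the most abundant gene and the gene with the largest ratio of GelMA-PSS against the mean of the controls, apart from a result that is not given here. Outside this rule the text also names Notch4, Dll3, Dll4, Dlk1, Dner, Hes5, Nrarp and Rbpj. All muscle markers are named, as are the 3 genes nearest to the Notch gene of widest range. Alternatives covered the pseudocount, filter, scaling, length and GC content, TPM, repeated symbols and the fold limit.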

Additional observations from a re-analysis of the deposited data

How the results depend on the processing

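With 1 library per substrate no replicate could be left out. No paired analysis was possible because each group has 1 library and no result comes from a test. Median-of-ratios scaling and no filter on low values changed no sign and moved no count beyond 1.5 times. For GelMA-PSS against GelMA, the median log2 ratio of the 10 genes was -0.48 with plain CPM, -0.10 after the length and GC correction and -0.72 as TPM. In the same order, 2, 0 and 3 of the 10 passed 2-fold. Of all tested genes, 120 were higher and 506 lower past 2-fold with plain CPM, 87 and 157 after correction and 39 and 1031 as TPM. At the limit of 1.5-fold 5 of the 10 passed, beside 21.8% of tested genes. Against TCP the median was -0.34, 0.13 and -0.62 in the same order. Against TCP 1 gene, Hey1, passed 2-fold with a pseudocount of 0.25 or with repeated symbols left out. Of all tested genes, 650 were higher and 561 lower with that pseudocount, and 492 and 411 without the repeated symbols. At 1.5-fold 3 of the 10 passed, beside 24.7% of tested genes. For GelMA against TCP the corrected median was 0.20, and 2 genes passed 1.5-fold, beside 5.62% of tested genes. Of the 51 tested other pathway genes, 0 passed against GelMA after correction, 10 as TPM and 15 at 1.5-fold, beside the counts and share of all genes given above. Against TCP 1 passed after correction, beside 264 higher and 314 lower of 13059 genes, and 11 at 1.5-fold, beside 24.7% of tested genes. Between GelMA and TCP 1 passed with a pseudocount of 0.25, beside 171 higher and 88 lower of all tested genes. At 1.5-fold 1 passed there, beside 5.62%. As TPM, 8 of the 10 genes were lower on GelMA-PSS than on both other substrates. The medians of all tested genes as TPM were themselves negative, at -0.36 against GelMA and -0.31 against TCP. No share lower than both was taken over all genes as TPM, so that the count is a description only. Of the 10 genes, the number higher than both was 1 with plain CPM and 1 as TPM. For these counts, too, no share over all genes was taken, so that they are a description only. With plain CPM the medians of all tested genes were -0.10 against GelMA and -0.06 against TCP. Signs that turned, all on values within the called limit, were those of Heyl and Hes6 (plain CPM), Jag2, Hes1 and Hes6 (correction) and Hes1, Heyl and Hes6 (TPM) against GelMA, of Notch2 and Notch3 (correction) and Jag2 (TPM) against TCP, and of Dll1 (plain CPM and TPM) between GelMA and TCP. Apart from the corrections' own construction, the cause was not tested. The depth of 87071144 counts or more per library gives narrow counting intervals, so that the lack of replicates limits these comparisons.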
